A study of Mus musculus with 6 samples.

Results

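The genes described here are 35 genes of mitosis, the step in which a cell parts its copied chromosomes, measured in macrophages of young mouse skin. They were taken by name from a list that was chosen with earlier results of these data known. The counts below therefore describe the list and are no independent test of it. Of the 35 genes, 34 had a probe set with a single gene symbol, among the 22180 genes that had such a probe set. Ccnb1, the gene of cyclin B1, was on no such probe set and was not analysed here. Each of the 34 lay above the level under which genes were left out as dim (4.335 on the log2 scale), and the lowest was Ttk with a mean of 5.203 over all samples. All 34 were therefore among the 15529 genes tested.

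The macrophages were sorted by FACS from digested ear skin of C57Bl/6 mice of genotype Cx3cr1+/gfp, aged 2 weeks and kept free of specific pathogens. In these mice the sequence of green fluorescent protein stands in for a copy of Cx3cr1, the receptor gene of the chemokine fractalkine, and every sample carried that genotype. The 3 subsets were CX3CR1low, CX3CR1int and CX3CR1high cells, with 2 samples each. A sample pooled 4 mice, and the 2 samples of a subset came from independent litters, so that the values describe pools and not single animals.

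Mitosis is run by cyclin-dependent kinase 1 and its cyclins, which bring about chromosome condensation and spindle assembly. Kinetochores, protein plates built on the centromeres, tie each chromosome to spindle microtubules, and a checkpoint holds the cell until every chromosome is tied. The anaphase-promoting complex then marks cyclins and securin for destruction, the chromosomes part, and the cell is cleft by cytokinesis. Tissue macrophages can renew by dividing in place, and messages of these genes are scarce in resting cells and peak late in the cell cycle. Their promoters are known for a cell cycle genes homology region, or CHR, through which the DREAM complex silences them in resting cells and B-Myb and FoxM1 complexes switch them on, and for CCAAT boxes, which bind the factor NF-Y.

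Those promoter elements are shown first, since they are a feature that the list of names did not use. RefSeq windows of 300 bases (GRCm38.p6), from 250 bases before to 50 after the annotated start, were at hand for 30 of the 35 genes, and not for Ccna2, Aurkb, Foxm1, Tpx2 and Kif20a. The following stretches are the 120 bases before the start of 6 of the genes with a CHR match there and of Ndc80, the gene with the largest difference between subsets. Kif15, Ckap2 and Ect2 also held such a match and are not printed. They are written 5′ to 3′ on the gene's strand, and capitals mark TTTGAA and CCAAT or their reverse complements TTCAAA and ATTGG.
Cdk1 (chr10:69352913-69353032, minus strand): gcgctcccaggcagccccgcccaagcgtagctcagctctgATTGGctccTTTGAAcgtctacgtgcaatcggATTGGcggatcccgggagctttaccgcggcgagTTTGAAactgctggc
Mki67 (chr7:135716380-135716499, minus strand): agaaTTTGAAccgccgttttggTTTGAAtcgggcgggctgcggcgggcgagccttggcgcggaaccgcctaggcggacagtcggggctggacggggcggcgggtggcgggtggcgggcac
Top2a (chr11:99024190-99024309, minus strand): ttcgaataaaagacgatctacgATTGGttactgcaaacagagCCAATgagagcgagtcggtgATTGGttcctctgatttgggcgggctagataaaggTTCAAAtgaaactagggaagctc
Kif11 (chr19:37376262-37376381, plus strand): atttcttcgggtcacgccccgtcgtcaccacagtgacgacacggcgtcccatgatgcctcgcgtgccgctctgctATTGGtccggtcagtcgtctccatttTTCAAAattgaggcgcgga
Cdc20 (chr4:118437344-118437463, minus strand): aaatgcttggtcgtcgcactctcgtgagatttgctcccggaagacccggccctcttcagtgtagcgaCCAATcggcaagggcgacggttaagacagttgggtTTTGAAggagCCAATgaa
Ube2c (chr2:164769809-164769928, plus strand): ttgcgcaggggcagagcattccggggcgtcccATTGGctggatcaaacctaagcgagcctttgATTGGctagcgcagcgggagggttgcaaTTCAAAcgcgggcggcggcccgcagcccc
Ndc80 (chr17:71526858-71526977, minus strand): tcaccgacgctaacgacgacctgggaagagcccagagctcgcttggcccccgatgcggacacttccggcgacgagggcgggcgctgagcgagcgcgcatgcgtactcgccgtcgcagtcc

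The CHR hexamer TTTGAA, read on both strands, was in the windows of 23 of 30 genes, a share of 76.7%, against 12.5% of the 12055 tested genes with a window and 18.1% of all 27025 genes with a window. The pentamer CCAAT, likewise read on both strands, was in 22 of 30 windows (73.3%), against 37.5% of those of tested genes. The motifs can share no more than an end base, and both were present in 19 windows (63.3%, against 5.12%). Within 50 bases of the start, TTTGAA was found in 21 of 30 windows (70.0%, against 3.09%). In Cdk1, matches of TTTGAA began 71 and 15 bases before the start, with reverse CCAAT boxes between and before them. Ndc80 held a match that began 30 bases after its start, outside the stretch printed, and no CCAAT. No match of either motif was seen in the windows of Melk, Birc5, Nuf2 and Nusap1, which says only that these letters are not in those windows. Of 80 other mitosis genes with a window, 39 held TTTGAA (48.8%). A match is a string of letters and not a measured binding site, and for genes with several windows the first listed was read.

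**Figure D1:**
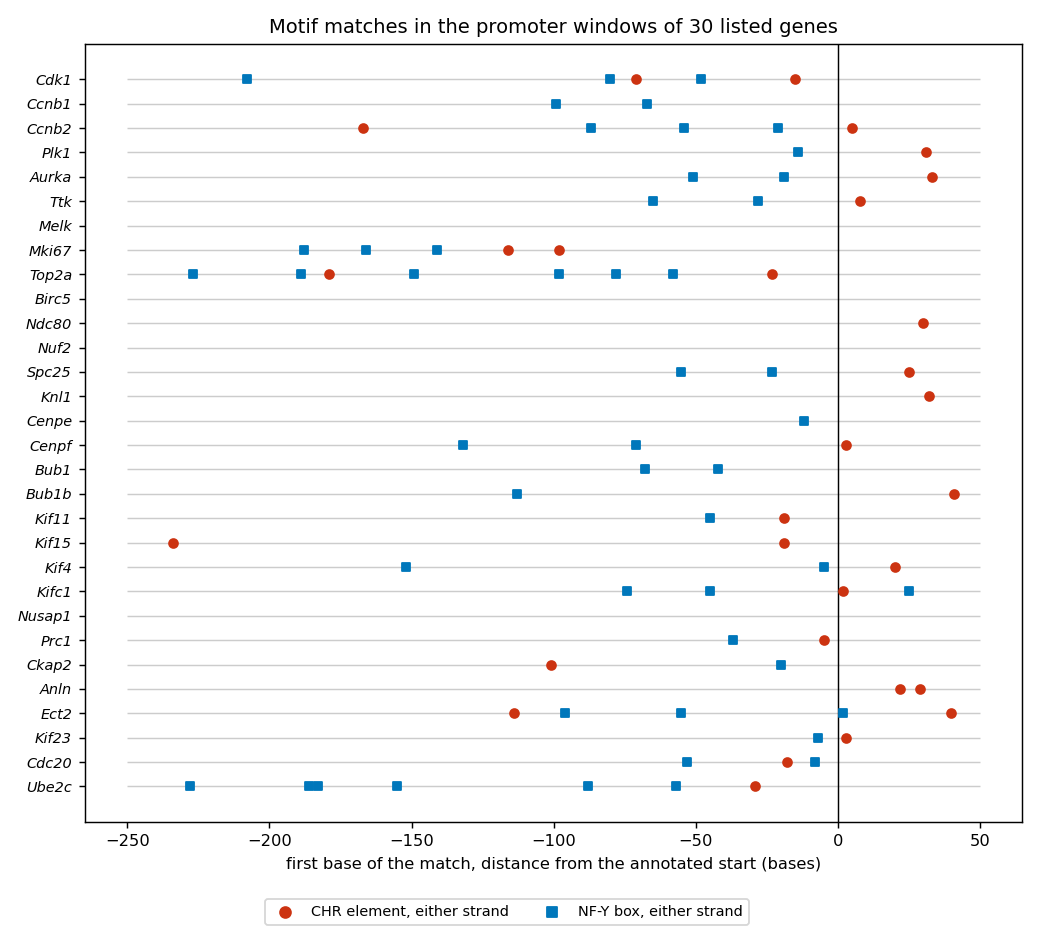
Positions of CHR and NF-Y motif matches in the promoter windows of 30 listed genes. The x axis gives the distance of the first base of a match from the annotated start in bases, and each row is a gene. CHR matches were in 23 rows and NF-Y boxes in 22, and 21 rows have a CHR match within 50 bases of the start.

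The cells carried the message of macrophages in each sample. Adgre1, which encodes F4/80, lay between 10.63 and 10.95, and Csf1r, the receptor that macrophages need to survive, between 11.15 and 11.58, both as log2 signals. Cx3cr1 itself was at 10.55 and 9.51 in CX3CR1high samples and between 5.87 and 7.05 in the other 4. Array medians ran from 4.84 to 4.94, and 2 arrays per subset limit the precision of every value. The samples numbered 1 and 2 differed in the sex-linked genes in each subset. Xist was at 7.39 to 7.97 in samples 1 and 10.99 to 11.39 in samples 2, and Eif2s3y at 7.76 to 8.27 and 2.99 to 3.72. The main results are therefore also given within each number. Within a subset, a difference between samples 1 and 2 cannot be told apart from one of sex or litter.

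Mitosis genes were highest in CX3CR1high cells and lowest in CX3CR1low cells in most cases. Of the 34 genes, 31 had their highest value in a CX3CR1high sample, and each time that was CX3CR1high sample 2. Likewise 31 had their lowest value in a CX3CR1low sample, 14 in sample 1 and 17 in sample 2. The shares of all genes with such extremes were not counted. Subset means ran in the order CX3CR1high, CX3CR1int, CX3CR1low in 29 genes, an order that 19.8% of all genes tested showed. Set against each gene's own mean over the 6 samples, the median gene of the list stood at -0.367 and -0.357 in CX3CR1low samples 1 and 2, 0.087 and -0.070 in CX3CR1int samples, and 0.105 and 0.615 in CX3CR1high samples. CX3CR1high sample 1 was thus nearer to CX3CR1int sample 1 than to CX3CR1high sample 2. In such sorted samples, a larger share of dividing cells and more of these messages per dividing cell cannot be told apart.

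**Figure D2:**
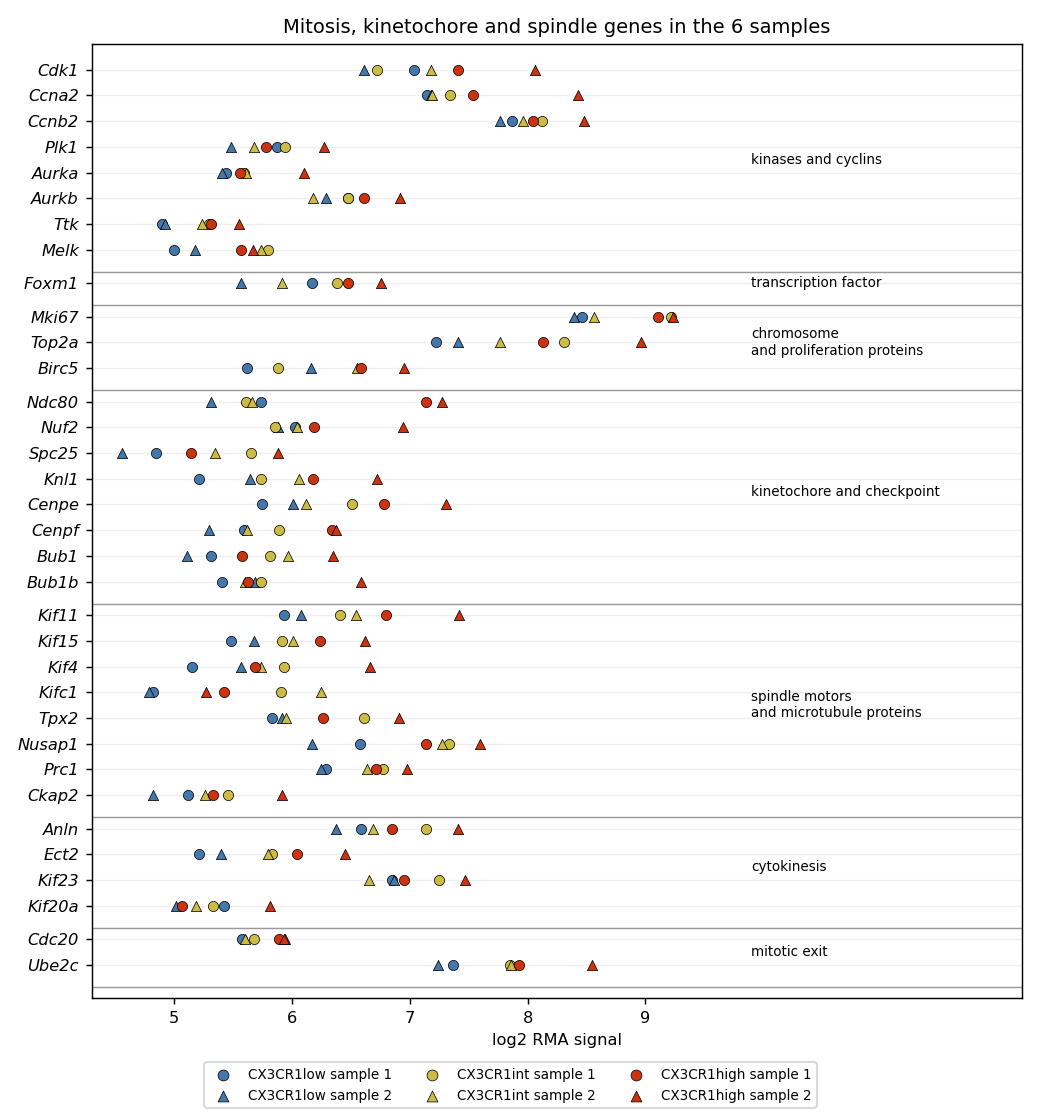
log2 RMA signals of the 34 measured genes, grouped by role, in the 6 samples. Colours stand for the subset, and circles and triangles for samples 1 and 2; levels of different genes rest on different probes and are not comparable. The red triangle, CX3CR1high sample 2, is the rightmost point in 31 rows, and Ndc80 is the gene in which both red points lie far from the other 4.

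The comparison of CX3CR1high with CX3CR1low cells sets the ends of the CX3CR1 range against each other. Each of the 34 genes had a higher mean in CX3CR1high cells, against 51.0% of all genes tested, with a median log2 difference of 0.748 where the median of all genes was 0.005. A single gene rose by the test, Ndc80 (limma, Benjamini-Hochberg adjustment over all genes, called at an adjusted p below 0.05), where 0.213% of all genes tested rose. In 30 of 34 genes both CX3CR1high samples lay above both CX3CR1low samples, which held for 19.8% of all genes. The exceptions were Plk1, Bub1b, Kif20a and Cdc20. At least 2-fold differences were seen in 5 genes, against 0.683% of all genes, and 27 genes had an unadjusted p below 0.05, against 4.82%. The difference was larger between the samples 2, with a median of 1.045, than between the samples 1, with 0.415, and it was positive in 33 (52.0% of all genes) and 32 (48.7%) of the 34 genes. Without CX3CR1high sample 2 the median was 0.438 and 33 genes had the higher mean. With the replicate number as a block in the fit, 3 genes were called, where 0.489% of all genes were called higher: Ndc80 (adjusted p = 0.00995), Knl1 (0.0367) and Kif11 (0.0427).

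The comparison of CX3CR1high with CX3CR1int cells gave a smaller difference that rested on the samples 2. The mean was higher in CX3CR1high cells for 32 of 34 genes (50% of all genes), with a median of 0.323 against 0 for all genes. Again Ndc80 alone rose (0.0773% of all genes did), and 16 genes were higher without overlap (18.3% of all genes), while Melk and Kifc1 were lower without overlap (18.5%). At an unadjusted p below 0.05, 8 genes were higher and 1 was lower, against 4.17% and 3.72% of all genes. Between the samples 2, 32 genes were higher in CX3CR1high cells, against 48.9% of all genes, with a median of 0.665. Between the samples 1, 16 of 34 genes were higher, against 50.1% of all genes, with a median of -0.045. Without CX3CR1high sample 2 the median was 0.058 and 21 genes had the higher mean, and without CX3CR1high sample 1 the median was 0.600.

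Between CX3CR1int and CX3CR1low cells the median difference was alike in samples 1 and 2, but that of several genes was not. The mean was higher in CX3CR1int cells for 31 of 34 genes (51.7% of all genes), with a median of 0.387 against 0.010 for all genes. The median was 0.420 between the samples 1 and 0.325 between the samples 2. In the same order Top2a differed by 1.09 and 0.36, Tpx2 by 0.78 and 0.03, and Cdk1 by -0.32 and 0.57. Others were steady, such as Kif11 at 0.48 and 0.46. Both CX3CR1int samples lay above both CX3CR1low samples in 23 genes (16.6% of all genes). No gene of the list passed the test in limma, where 0% of all genes rose, and none did with the replicate block. At an unadjusted p below 0.05, 9 of 34 genes were higher and 0 were lower, against 2.22% and 2.67% of all genes. The 3 comparisons share samples and are not independent.

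**Figure D3:**
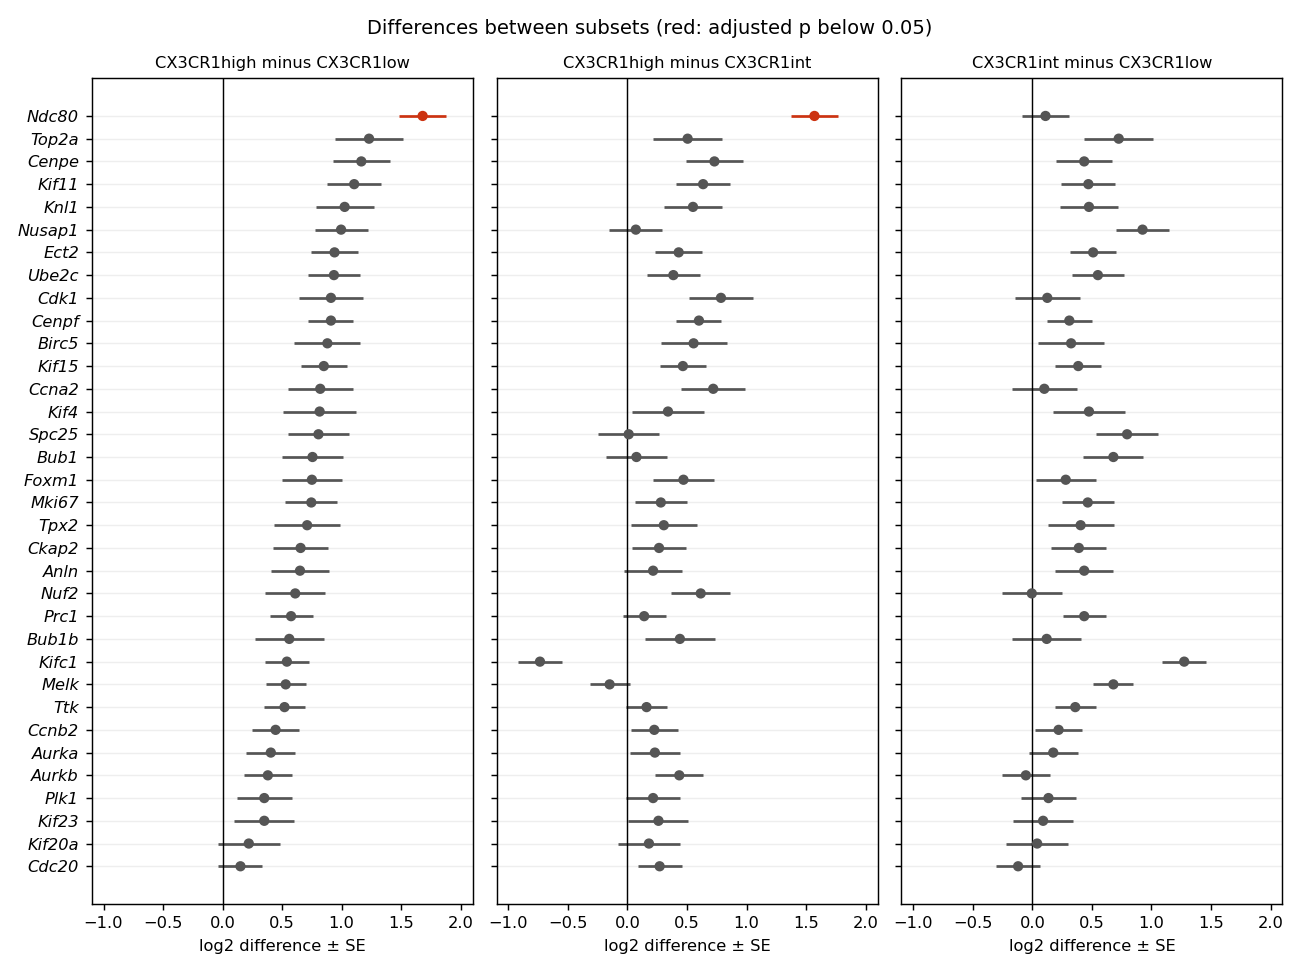
log2 differences between subset means (points) with their standard errors (bars) for the 34 genes in the 3 comparisons, in the order of the CX3CR1high minus CX3CR1low difference. Red marks an adjusted p below 0.05, which was reached by Ndc80 in both comparisons with CX3CR1high cells. Kifc1 has the largest difference between CX3CR1int and CX3CR1low cells, 1.275.

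Kinetochore and checkpoint genes held the largest difference of the list. Ndc80 encodes the subunit of the Ndc80 complex that grips microtubules at the kinetochore. Its log2 signal was 7.14 and 7.27 in CX3CR1high samples, 5.61 and 5.66 in CX3CR1int samples, and 5.74 and 5.31 in CX3CR1low samples. Both CX3CR1high samples stood apart from the other 4, which overlapped. Ndc80 rose 3.20-fold over its level in CX3CR1low cells, a gap of 1.68 ± 0.20 log2 units (SE, with 2 samples in each subset; limma adjusted p = 0.0168). Over CX3CR1int cells it rose 2.97-fold, a gap of 1.57 ± 0.20 (SE; adjusted p = 0.0405). The rise was present in both numbers, at 1.4 and 1.96 against CX3CR1low and 1.53 and 1.61 against CX3CR1int cells. The adjusted p against CX3CR1low cells was above 0.05 without CX3CR1low sample 2 (0.0674), CX3CR1high sample 1 (0.154) or CX3CR1high sample 2 (0.123). Against CX3CR1int cells it was 0.175 to 0.264 without any of the 4 samples compared.

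The 3 partners of Ndc80 in its complex had smaller differences between CX3CR1high and CX3CR1low cells, of 0.50 to 0.80. Nuf2, which pairs with Ndc80, was at 6.19 and 6.94 in CX3CR1high samples against 5.86 and 6.04 in CX3CR1int and 6.03 and 5.88 in CX3CR1low samples. The difference from CX3CR1low cells was 0.61 ± 0.25 (SE, adjusted p = 0.486), larger than the spread in CX3CR1low and CX3CR1int cells and no larger than the gap between both CX3CR1high samples. Spc25, which anchors the complex to the inner kinetochore, was at 5.14 and 5.88 in CX3CR1high, 5.65 and 5.35 in CX3CR1int and 4.85 and 4.56 in CX3CR1low samples. CX3CR1high and CX3CR1int samples of Spc25 overlapped, and both lay above the CX3CR1low samples. Spc24, its partner from the list of other mitosis genes, was at 6.33 and 6.67 in CX3CR1high samples and between 5.89 and 6.07 in the other 4. Whether the response of Ndc80 differs from that of its partners was not tested.

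Knl1, the scaffold that recruits checkpoint proteins to the kinetochore, was at 6.18 and 6.72 in CX3CR1high, 5.74 and 6.06 in CX3CR1int and 5.21 and 5.64 in CX3CR1low samples. Its difference of 1.02 ± 0.24 (SE) between CX3CR1high and CX3CR1low cells had an adjusted p of 0.180, and 0.0367 with the replicate block. Sample 2 of Knl1 exceeded sample 1 in each subset. Cenpe, a kinesin motor that moves chromosomes to the spindle's middle, was at 6.78 and 7.31, at 6.51 and 6.12, and at 5.75 and 6.01 in the same order of subsets. It differed by 1.16 ± 0.24 (SE, adjusted p = 0.105), with all 3 subsets free of overlap. Cenpf, a large protein of the outer kinetochore, was at 6.34 and 6.37 in CX3CR1high, 5.89 and 5.62 in CX3CR1int and 5.59 and 5.30 in CX3CR1low samples. Its 2 CX3CR1high values nearly coincided, and it differed by 0.91 ± 0.19 (SE, adjusted p = 0.111). The checkpoint kinase gene Bub1 and the gene of its relative BubR1, Bub1b, differed by 0.76 and 0.56, and in both CX3CR1high sample 1 overlapped with CX3CR1int or CX3CR1low samples.

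Among the chromosome proteins, Top2a, the topoisomerase that untangles sister chromatids, was at 8.13 and 8.96 in CX3CR1high, 8.31 and 7.77 in CX3CR1int and 7.22 and 7.41 in CX3CR1low samples. Top2a overlapped between CX3CR1high and CX3CR1int cells, while both exceeded CX3CR1low cells. Its difference of 1.23 ± 0.29 (SE) between CX3CR1high and CX3CR1low cells, 2.35-fold, had an adjusted p of 0.177. Birc5, which encodes survivin of the chromosomal passenger complex, was at 6.59 and 6.95, 5.88 and 6.55, and 5.62 and 6.16 in CX3CR1high, CX3CR1int and CX3CR1low samples. In every subset the sample 2 of Birc5 was the higher. The CX3CR1high minus CX3CR1low difference was 0.97 between the samples 1 and 0.79 between the samples 2 (adjusted p = 0.323, and 0.078 with the replicate block). Mki67, the gene of the proliferation marker Ki-67, was at 9.11 and 9.23 in CX3CR1high samples, 9.22 and 8.56 in CX3CR1int samples, and 8.46 and 8.39 in CX3CR1low samples. CX3CR1int sample 1 thus reached the level of CX3CR1high cells for Mki67, and the difference of 0.74 ± 0.22 (SE) between CX3CR1high and CX3CR1low cells had an adjusted p of 0.288.

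All 8 spindle motors and microtubule proteins were higher in CX3CR1high than in CX3CR1low samples without overlap, which held for 19.8% of all genes tested. Kif11, the motor that pushes spindle poles apart, was at 6.80 and 7.42 in CX3CR1high, 6.41 and 6.54 in CX3CR1int and 5.93 and 6.08 in CX3CR1low samples. The 3 subsets of Kif11 followed each other without overlap, and CX3CR1high and CX3CR1low cells differed by 1.10 ± 0.23 (SE, adjusted p = 0.110, and 0.0427 with the replicate block). Nusap1, which binds and bundles spindle microtubules, was at 7.14 and 7.60 in CX3CR1high, 7.33 and 7.27 in CX3CR1int and 6.58 and 6.17 in CX3CR1low samples. CX3CR1high and CX3CR1int cells overlapped in Nusap1, with a difference of 0.07, while CX3CR1int cells exceeded CX3CR1low cells by 0.92 ± 0.22 (SE, adjusted p = 0.818). Kif15, a motor that works beside Kif11, Kif4, which shapes chromosomes and the central spindle, Tpx2, which activates Aurora A on microtubules, Prc1, which bundles the central spindle, and Ckap2, which stabilises microtubules, differed by 0.58 to 0.85 between CX3CR1high and CX3CR1low cells.

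Kifc1, a motor that moves toward microtubule minus ends and clusters spindle poles, had another order than most of the list. It was at 5.91 and 6.25 in CX3CR1int, 5.42 and 5.27 in CX3CR1high and 4.82 and 4.79 in CX3CR1low samples, with no overlap between subsets. Its difference of 1.27 ± 0.18 (SE) between CX3CR1int and CX3CR1low cells, 2.42-fold, was the largest of the list in that comparison and did not pass (adjusted p = 0.295). CX3CR1high cells lay below CX3CR1int cells by 0.49 between the samples 1 and 0.98 between the samples 2 (adjusted p = 0.292). The mouse genome holds a near-identical copy of Kifc1, Kifc5b, and the probes may not tell them apart. Melk, a kinase gene of dividing cells, was the other gene highest in CX3CR1int cells, at 5.80 and 5.74 against 5.57 and 5.67 in CX3CR1high and 5.0 and 5.18 in CX3CR1low samples.

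The 8 genes of kinases and cyclins had a median difference of 0.482 between CX3CR1high and CX3CR1low cells, where all 34 genes had 0.748. Cytokinesis and mitotic exit genes had medians of 0.50 and 0.542. Cdk1 (0.91) and Ccna2 (0.82) lay above the median of the list. Cdk1, the kinase at the head of the programme, was at 7.41 and 8.06 in CX3CR1high, 6.72 and 7.18 in CX3CR1int and 7.04 and 6.61 in CX3CR1low samples. CX3CR1int and CX3CR1low samples of Cdk1 overlapped, and CX3CR1high cells exceeded CX3CR1low cells by 0.37 between the samples 1 and 1.45 between the samples 2 (0.91 ± 0.27, SE, adjusted p = 0.292). Ccna2, the gene of cyclin A2, reached 8.43 in CX3CR1high sample 2, was 7.54 in CX3CR1high sample 1 and lay between 7.15 and 7.34 in the other 4. Ccnb2, of cyclin B2, differed by 0.44 between CX3CR1high and CX3CR1low cells, Aurka and Aurkb, the Aurora kinases of spindle poles and centromeres, by 0.40 and 0.38, and Ttk, the checkpoint kinase Mps1, by 0.52. Plk1, a kinase of spindle assembly and cytokinesis, was at 5.78 and 6.27 in CX3CR1high samples against 5.48 to 5.94 elsewhere, so that CX3CR1high sample 1 lay within the other subsets. Foxm1, the transcription factor that activates many of these genes, was at 6.48 and 6.76, 6.38 and 5.92, and 6.17 and 5.57 in CX3CR1high, CX3CR1int and CX3CR1low samples (CX3CR1high minus CX3CR1low 0.75 ± 0.25, SE, adjusted p = 0.368).

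Differences of cytokinesis and mitotic exit genes ran from 0.15 to 0.94 between CX3CR1high and CX3CR1low cells. Ect2, the exchange factor that starts the cleavage furrow, was at 6.04 and 6.45 in CX3CR1high, 5.83 and 5.80 in CX3CR1int and 5.21 and 5.40 in CX3CR1low samples, again without overlap. Its difference between CX3CR1high and CX3CR1low cells was 0.94 ± 0.19 (SE, adjusted p = 0.112). Ube2c, the ubiquitin-conjugating enzyme of the anaphase-promoting complex, was at 7.93 and 8.55, 7.85 and 7.86, and 7.37 and 7.24 in CX3CR1high, CX3CR1int and CX3CR1low samples. It kept the same order of subsets with a difference of 0.94 ± 0.22 (SE, adjusted p = 0.179) between the ends. Anln, of the furrow protein anillin, differed by 0.65, and the motor genes Kif23 and Kif20a, which act at the central spindle, by 0.35 and 0.22. Kif20a was lower by 0.35 in CX3CR1high than in CX3CR1low cells between the samples 1 and higher by 0.79 between the samples 2. Cdc20, the activator of the anaphase-promoting complex, had the smallest difference, 0.15 ± 0.19 (SE, adjusted p = 0.866), and lay between 5.58 and 5.94 in all 6 samples.

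**Figure D4:**
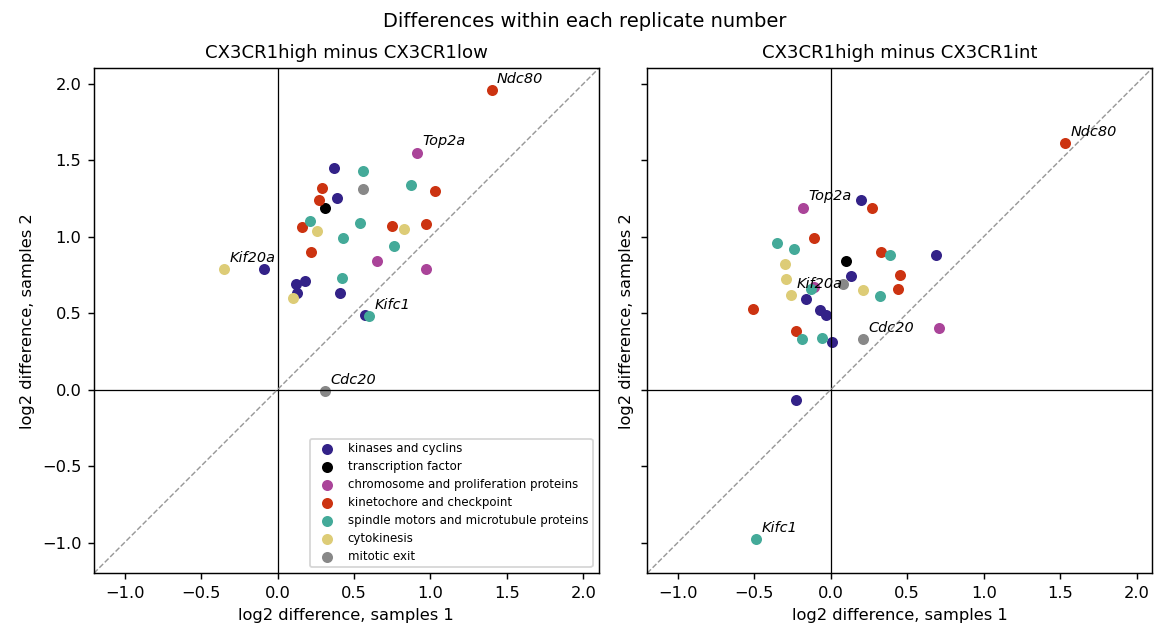
log2 differences of the 34 genes between the samples 1 (x axis) and between the samples 2 (y axis), for CX3CR1high against CX3CR1low cells (left) and against CX3CR1int cells (right), coloured by role. Points on the dashed line have equal differences in both numbers. On the right, 32 genes lie above 0 on the y axis and 16 lie above 0 on the x axis, and Ndc80 stands alone at 1.53 and 1.61.

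Other genes of mitosis were also mostly higher in CX3CR1high cells, with a smaller median. Of 97 further genes of centromeres, checkpoint, condensin, spindle, cytokinesis and mitotic entry and exit, 87 were tested, and 0 were called in any of the 3 comparisons. Of all genes, 0.213% were called higher in CX3CR1high than in CX3CR1low cells and 0.0773% higher than in CX3CR1int cells. Between CX3CR1int and CX3CR1low cells 0% were called higher. Between CX3CR1high and CX3CR1low cells 81 had a higher and 6 a lower mean (51.0% and 48.6% of all genes), with a median of 0.425. Without overlap, 55 were higher and 1 was lower (19.8% and 18.4% of all genes). At an unadjusted p below 0.05, 36 were higher and 0 were lower (4.82% and 4.84% of all genes). The median difference was 0.23 between the samples 1 and 0.58 between the samples 2. With the replicate block 3 of them were called higher, where 0.489% of all genes were: Ckap2l, a spindle protein gene (1.04 ± 0.18, SE, in the fit without block; adjusted p = 0.0307 with it), Depdc1a (1.19, 0.0272) and Cks2, a small subunit of cyclin-dependent kinases (0.98, 0.0460). The CX3CR1low means of Ckap2l (4.205) and Depdc1a (4.040) lay under the level of 4.335. The other large differences were those of Shcbp1 (1.44), Cenpn, a centromere protein gene (1.03), and Pbk, a mitotic kinase gene (1.01). Against CX3CR1int cells 67 of 87 were higher and 20 lower (50% of all genes higher), with a median of 0.275 in all, 0.07 between the samples 1 and 0.41 between the samples 2. At an unadjusted p below 0.05, 13 of these were higher and 0 lower (4.17% and 3.72% of all genes). Between CX3CR1int and CX3CR1low cells 68 were higher and 19 lower (51.7% of all genes higher), with a median of 0.160, and 6 were higher and 0 lower at an unadjusted p below 0.05 (2.22% and 2.67% of all genes). That median was 0.19 between the samples 1 and 0.12 between the samples 2.

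Genes of DNA synthesis and of arrest show the neighbouring parts of the cycle. All 27 tested of 30 S-phase genes had higher means in CX3CR1high than in CX3CR1low cells, against 51.0% of all genes, with a median of 0.340. Of these 0 were called, where 0.213% of all genes were called higher, and 12 were higher at an unadjusted p below 0.05 (4.82% of all genes). The median was 0.28 between the samples 1 and 0.57 between the samples 2. The helicase subunit gene Mcm6 was at 8.17 and 8.09 in CX3CR1high, 7.83 and 7.72 in CX3CR1int and 7.64 and 7.31 in CX3CR1low samples (0.66 ± 0.18, SE, adjusted p = 0.255). Of 15 tested cell cycle brake genes, 10 were higher and 5 lower, against 51.0% and 48.6% of all genes, with a median of 0.005. None was called by limma, where 0.213% of all genes were called higher and 0.187% lower. At an unadjusted p below 0.05, 0 were higher or lower, against 4.82% and 4.84% of all genes. Their median was 0.10 between the samples 1 and 0.02 between the samples 2. The CDK inhibitor gene Cdkn1b was at 7.35 and 7.16 in CX3CR1high samples and between 6.51 and 6.97 in the other 4 (0.41 ± 0.20, SE, adjusted p = 0.549).

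**Figure D5:**
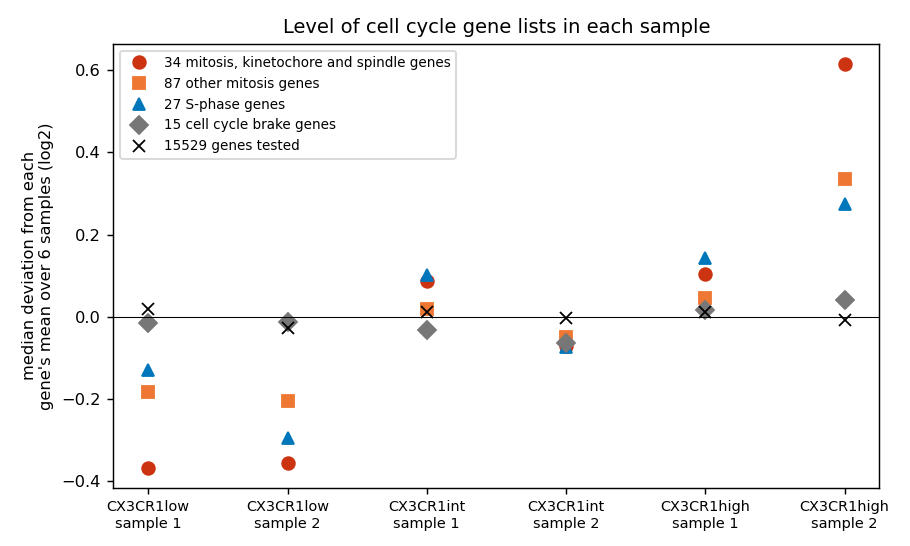
Median deviation from each gene's own mean over 6 samples, on the log2 scale, for the 34 genes, 87 other mitosis genes, 27 S-phase genes, 15 cell cycle brake genes and all 15529 genes tested, by sample. The 34 genes stand at 0.615 in CX3CR1high sample 2 and at -0.367 and -0.357 in the CX3CR1low samples, while all genes tested lie between -0.028 and 0.018.

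Markers of keratinocytes, fibroblasts and mast cells had lower levels in CX3CR1high than in CX3CR1low samples, with 11 of 12, 9 of 11 and 6 of 6 genes lower, where 48.6% of all genes were lower. Of them 1, 0 and 3 were called lower, against 0.187% of all genes. With the replicate block 2, 6 and 3 were called lower, against 0.502%. Cpa3, a mast cell gene called with and without the block, had a CX3CR1high mean of 4.07, under the dim level of 4.335. The mean log2 level of 12 keratinocyte genes was 6.91 and 7.30 in CX3CR1low and 6.49 and 6.59 in CX3CR1high samples, that of 11 fibroblast genes 7.25 and 7.75 against 6.57 and 6.65, and that of 6 mast cell genes 6.44 and 6.16 against 4.78 and 4.71. Over 8 genes of T, NK and innate lymphoid cells the mean level was 5.62 and 5.93 in CX3CR1low against 5.79 and 5.77 in CX3CR1high samples. Of these genes, 5 were higher and 3 lower (51.0% and 48.6% of all genes). None was called, where 0.213% of all genes were called higher and 0.187% lower. Il7r, the receptor gene of interleukin 7, was at 9.20 and 9.33 in CX3CR1high, 8.97 and 8.61 in CX3CR1int and 8.08 and 8.91 in CX3CR1low samples (CX3CR1high minus CX3CR1low 0.77 ± 0.27, SE, adjusted p = 0.372). Of the genes of the CD3 complex of T cells, Cd3e was at 4.52 and 5.03 in CX3CR1high and 4.42 and 4.35 in CX3CR1low samples, Cd3d overlapped between these subsets, and Cd3g was under the dim level. The largest difference of the 8 was that of Thy1, a fall, and Thy1 also counts among the fibroblast genes. It was at 6.83 and 5.96 in CX3CR1high and 7.24 and 8.09 in CX3CR1low samples (-1.27, limma adjusted p = 0.255). The mean level of the 8 genes includes this fall. Over 14 macrophage genes the mean level was 10.47 and 10.34 in CX3CR1low against 10.36 and 10.38 in CX3CR1high samples. Langerhans cell genes, 5 in all, had mean levels of 6.14 and 6.63 in CX3CR1low and 6.14 and 6.39 in CX3CR1high samples, but Cd207, which encodes langerin, was at 7.57 and 8.07 in CX3CR1high samples and between 6.00 and 6.85 in the other 4. Of these 5 genes, 4 had lower means in CX3CR1high than in CX3CR1low cells, among them Cd24a (-1.035, overlapping) and Cdh1 (-0.57, without overlap). Among 6 dendritic cell genes, 3 were higher and 3 lower, with mean levels of 5.64 in both CX3CR1low samples and of 5.85 and 5.68 in CX3CR1high samples. The lower ones were Zbtb46 (-0.425) and Kit (-0.40), both without overlap, and Cd209a (-0.21). Kit also counts among the 6 mast cell genes. Ccr7 is the chemokine receptor gene of migrating dendritic cells. Its subset means ran in the order of most mitosis genes, which 19.8% of all genes tested showed. Ccr7 was at 7.29 and 6.72 in CX3CR1high, 6.83 and 6.73 in CX3CR1int and 5.74 and 5.64 in CX3CR1low samples. Unlike most mitosis genes, Ccr7 was not highest in CX3CR1high sample 2, which lay below both CX3CR1int samples. Its difference of 1.31 ± 0.22 (SE) between CX3CR1high and CX3CR1low cells, 2.49-fold, had an adjusted p of 0.0510, and 0.0239 with the replicate block. Flt3, a receptor gene of dendritic cells and their precursors, had its highest subset mean in CX3CR1int cells, as had Kifc1 and Melk, at 5.63 and 4.97 against 5.07 and 4.67 in CX3CR1high and 4.57 and 4.32 in CX3CR1low samples. For 6 monocyte genes, mean levels ran from 5.52 to 5.92 in the CX3CR1high samples, from 6.33 to 7.36 in CX3CR1int cells, and from 5.63 to 7.03 among CX3CR1low samples. The members went opposite ways. Ly6c2, a surface marker gene of classical monocytes, was at 3.36 and 4.92 in CX3CR1high, 7.35 and 7.90 in CX3CR1int and 6.48 and 7.11 in CX3CR1low samples. It fell 11.2-fold from CX3CR1int to CX3CR1high cells (limma adjusted p = 0.0421, where 0.0644% of all genes were called lower). It was 6.30-fold lower than in CX3CR1low cells (adjusted p = 0.0586, and 0.00484 with the replicate block). The CX3CR1high mean of Ly6c2, 4.14, lay under the dim level of 4.335, so that both folds rest on a mean under that level. Gda was the other monocyte gene called lower than in CX3CR1low cells with the block (2.46-fold, adjusted p = 0.161, and 0.0337 with the block). Ccr2, the chemokine receptor gene of monocytes leaving the marrow, was at 7.92 and 7.26 in CX3CR1high samples and between 5.56 and 7.15 in the other 4, a difference of 1.24 ± 0.44 (SE, adjusted p = 0.401) from CX3CR1low cells. In the same comparison 6 of 6 endothelial, 5 of 6 neutrophil and 4 of 6 melanocyte and Schwann genes had lower means in CX3CR1high cells. Of the B cell genes, 2 of 2 had higher means. None of these was called, where 0.213% of all genes were called higher and 0.187% lower. The part of any of the cell types named here in the mitosis values was not tested.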

How the data were processed

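RNA of sorted cells was amplified with a whole-transcriptome kit and hybridised to Affymetrix arrays, 1 for each of the 6 samples, per the labels' protocols. The deposited log2 signals were used as given; the submitters' processing notes name RMA and Affymetrix Expression Console 1.4 for them. Of 34390 probe sets, 23521 had a single gene symbol, and the brightest stood for each of 22180 genes. Genes under the 30th percentile of mean signal were left out as dim.

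The model, in limma 3.58.1 under R 4.3.3, had a mean for each subset and an intensity trend. Tests were two-sided, with Benjamini-Hochberg adjustment over 15529 genes. The code was run on simulated data with independent noise and no effect of replicate number. That run had to recover the size of set differences, and it does not measure how reliable the calls here are. Each gene's variance had 3 residual degrees of freedom, joined by 5.77 prior ones. Alternatives were another filter, probe rule, scaling, variance prior and set of samples. Whether the replicate number pairs samples was checked by the correlation across genes of deviations from the subset means, which was 0.146, 0.136 and 0.178 for the 3 pairs of subsets, and the block was therefore run beside each result. Values in every sample are given for the called gene, the 10 further genes of the largest CX3CR1high minus CX3CR1low difference, and some chosen after their values were seen: Nuf2, Spc25, Spc24, Mki67, Ccna2, Plk1, Foxm1, Kifc1 and Melk. Of the other mitosis genes, those of the 5 largest differences are named, and Cks2 after its value was seen; of the S-phase and brake genes, the one of the smallest p. Markers named singly are Adgre1, Csf1r and Cx3cr1, and, after their values were seen, Cpa3, Thy1, Cd207, Cd24a, Cdh1, Il7r, the Cd3 genes, Ccr7, Flt3, Zbtb46, Kit, Cd209a, Ly6c2, Gda and Ccr2. Members and lists were chosen with earlier results of these data known. Sort gates and probe intensities were not used here.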

Additional observations from a re-analysis of the deposited data

How the results depend on the processing

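With 2 arrays a subset, the calls rest on few samples. Leaving out each sample in turn gave 0 to 1 genes called between CX3CR1high and CX3CR1low cells and 0 to 1 between CX3CR1high and CX3CR1int cells. The median differences ran from 0.438 to 1.01, from 0.058 to 0.600, and from 0.265 to 0.425 between CX3CR1int and CX3CR1low cells. The replicate block called 3 genes between CX3CR1high and CX3CR1low cells and changed no other call of the 34 genes; of the other mitosis genes it called 3, against 0 without it. Without the filter on dim genes, or without the intensity trend, 0 genes were called between CX3CR1high and CX3CR1int cells, where Ndc80 kept its difference of 1.57 with adjusted p values of 0.0598 and 0.0503. The difference of Ndc80 between CX3CR1int and CX3CR1low cells, 0.11, ran from -0.105, without CX3CR1low sample 2, to 0.325 when samples were left out in turn. The cause was not tested. Under centring and quantile normalisation Ndc80 stayed called in both comparisons, and the median of all genes moved to between -0.045 and 0.007. Of 362 alternative values in all, 337 were labelled the same as the main result. That label also covers genes that were uncalled throughout, counts of 0 that stayed 0, and counts that changed little. Medians that moved by less than the spread between the samples 1 and 2 also count. The move from 0.323 to 0.058 between CX3CR1high and CX3CR1int cells is among them. The share therefore does not measure how firm the calls are.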
